A study of Mus musculus with 2 samples.

Results

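The Fc gamma receptor genes of the mouse were followed in spatial transcriptomics of orthotopic pancreatic tumors. The set was taken by symbol from the feature list and holds 5 of its 19465 features: Fcgr1, Fcgr3 and Fcgr4, which encode the activating receptors for immunoglobulin G (IgG), Fcgr2b, which encodes the inhibitory receptor, and Fcer1g, which encodes the signaling chain that the activating receptors share. All 5 were counted in both libraries and passed the minimum of 100 UMIs in each. The tumors were allografts grown in the pancreas of mice from KPC cells, a mouse pancreatic cancer line from a genetically engineered model driven by Pdx-1-Cre. One library was labelled KPC-shZEB1, from cells with a short hairpin RNA against Zeb1, and the other KPC-shV, from cells with the control vector. Each group has 1 library here, although the labels give 2 tumors for each, and which tumor a library covers is not given in the sources used here. The study describes immunocompetent hosts, so that host immune cells are present, and gemcitabine treatment, but the labels name neither, nor the age or strain of the mice.

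Fc gamma receptors bind the constant part of IgG and link antibodies to phagocytosis, cytokine release and the uptake of immune complexes. The activating receptors signal through the chain encoded by Fcer1g, whose paired tyrosines recruit the kinase Syk. The receptor encoded by Fcgr2b carries an inhibitory motif that recruits the phosphatase SHIP1 and raises the threshold for activation, and it is also the Fc gamma receptor of B cells. Macrophages can carry all of these receptors, neutrophils carry those encoded by Fcgr3 and Fcgr4, and NK cells carry that of Fcgr3. The study used Fcgr3 as one of 5 granulocyte markers, and a question of the comparisons below is how the receptor genes were spread over macrophage-, neutrophil- and plasma cell-rich spots.

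The signaling stretches known for Fcgr2b and Fcer1g are shown first, as coding sequence of GENCODE M21 on GRCm38, with the tyrosine codons in capitals. The inhibitory stretch of Fcgr2b lies in coding bases 949 to 966, at chr1:170961071-170961088 on the minus strand, and the activating stretch of Fcer1g lies in coding bases 193 to 237, at chr1:171229889-171230072 on the minus strand, where an intron interrupts it.
Fcgr2b inhibitory stretch: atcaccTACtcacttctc
Fcer1g activating stretch: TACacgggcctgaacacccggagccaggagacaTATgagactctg
The first holds 1 tyrosine codon and the second holds 2. The inhibitory pattern alone does not separate the receptors, since its match was also found 3 times in the coding sequence of Fcgr1 and 1 time each in those of Fcgr4 and Fcer1g, while the activating pattern was found in Fcer1g alone among the 5.

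Fcgr2b (ENSMUSG00000026656, chr1:170958617-170976547, minus strand), Fcgr4 (ENSMUSG00000059089, chr1:171018920-171029761, plus strand) and Fcgr3 (ENSMUSG00000059498, chr1:171051174-171064935, minus strand) are neighbors, and they are the only 3 protein-coding genes of GENCODE M21 that lie whole within the 106 kb they span. Fcer1g (ENSMUSG00000058715, chr1:171229572-171234365, minus strand) starts 165 kb farther on, and Fcgr1 (ENSMUSG00000015947, chr3:96282909-96293969, minus strand) is on another chromosome. Fcgr3 and Fcgr2b are close paralogs. Of the 752 windows of 50 bases in the coding sequence of Fcgr3, 166 occur unchanged in Fcgr2b, and of the 777 windows of 25 bases, 264 do. None of the other 9 pairs of the 5 genes shared a window of 25 bases, and their longest shared runs were 8 to 14 bases. The longest run shared by Fcgr3 and Fcgr2b has 129 bases and crosses an exon boundary in both genes. It is printed in capitals with 15 bases on each side, because a probe within it could not tell the genes apart.
Fcgr3, coding bases 248 to 406: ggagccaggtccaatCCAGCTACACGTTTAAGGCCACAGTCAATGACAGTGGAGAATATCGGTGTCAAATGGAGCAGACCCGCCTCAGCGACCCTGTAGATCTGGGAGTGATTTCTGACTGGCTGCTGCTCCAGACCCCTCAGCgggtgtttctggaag
Fcgr2b, coding bases 263 to 421: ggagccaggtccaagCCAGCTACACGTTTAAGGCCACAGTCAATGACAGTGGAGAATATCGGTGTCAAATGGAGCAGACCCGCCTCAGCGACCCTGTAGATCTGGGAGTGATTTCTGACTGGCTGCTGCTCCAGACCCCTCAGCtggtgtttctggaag
The probe sequences were not used here, so whether a probe of either gene lies in the shared part was not tested, and the split of UMIs between Fcgr3 and Fcgr2b is uncertain to that extent.

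On a Visium CytAssist slide, probes released from the tissue are caught in barcoded spots, each covering an area in which cells of several types may lie. The KPC-shZEB1-labelled library gave 140493626 UMIs (unique molecular identifiers, one for each captured probe molecule) over 2220 spots (median 59957.5 per spot), and the KPC-shV-labelled library held 172059528 over 3552 spots (median 52544.5). Levels are UMIs per 1000000 UMIs (CPM), and a log2 ratio is KPC-shZEB1 over KPC-shV. With a single library on each side, no replicate spread was measured and no test was made, and all intervals are exact 95% intervals for counting error. Zeb1, the targeted gene, stood at 10.8 CPM (10.3 to 11.3) in the KPC-shZEB1-labelled library and 12.4 CPM (11.9 to 13.0) in the KPC-shV-labelled library, but at 15.6 (14.8 to 16.4) and 12.7 (12.2 to 13.3) outside acinar-rich spots, where it went against the labels. The hairpin was put into the KPC cells, while spots also hold host cells, so these are not levels of the tumor cells alone. Outside acinar-rich spots summed fibroblast genes were at 8086 against 6485 CPM and summed tumor epithelium genes at 5433 against 6103 CPM. The level of Zeb1 in the tumor cells was not tested. Directions below are therefore those of the labels. Acinar-rich spots, with over 20% of their UMIs from pancreatic digestive enzyme genes, made up 34.0% of the spots labelled KPC-shZEB1 (32.0% to 35.98%) and 6.87% of those labelled KPC-shV (6.06% to 7.75%). The median log2 ratio of 15358 genes was -0.48 with all spots and -0.02 for 14389 genes outside acinar-rich spots, so both sets of spots are given for each gene.

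Between the libraries the Fc gamma receptor genes differed by less than 2-fold, and the order depended on the spots used. Over all spots Fcgr3 and Fcgr2b had the lower levels in the KPC-shZEB1-labelled library and the log2 ratios of the other 3 genes lay between -0.06 and 0.04, while outside acinar-rich spots all 5 genes were higher in the KPC-shZEB1-labelled library. Of the 5 genes, 0 were at least 2-fold higher and 0 at least 2-fold lower with all spots, where 2.40% and 9.21% of 15358 genes were. Outside acinar-rich spots the counts were again 0 and 0, against 4.80% and 2.02% of 14389 genes.

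Among the activating receptors, Fcgr1, which encodes the high-affinity receptor for IgG, stood at 46.9 CPM (45.8 to 48.1) in the KPC-shZEB1-labelled library and 45.7 (44.7 to 46.7) in the KPC-shV-labelled library, with a log2 ratio of 0.04 (-0.01 to 0.09). The counting intervals of this gene overlap. Outside acinar-rich spots it was 69.4 CPM against 46.1 CPM, with a log2 ratio of 0.59 (0.54 to 0.64). Fcgr3, which encodes a low-affinity activating receptor, stood at 225.2 CPM (222.7 to 227.7) against 285.9 (283.4 to 288.4), with a log2 ratio of -0.34 (-0.36 to -0.32). Outside acinar-rich spots the order turned, with 343.1 CPM against 292.6 CPM and a log2 ratio of 0.23 (0.21 to 0.25). Fcgr4, which encodes an activating receptor for some IgG subclasses, stood at 77.8 CPM (76.3 to 79.2) against 80.9 (79.5 to 82.2), with a log2 ratio of -0.06 (-0.09 to -0.02). Its order turned as well, to 120.5 CPM against 83.3 CPM and a log2 ratio of 0.53 (0.50 to 0.57).

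Fcgr2b, the inhibitory receptor, had the same order as Fcgr3, at 152.8 CPM (150.8 to 154.9) in the KPC-shZEB1-labelled library and 182.3 (180.3 to 184.3) in the KPC-shV-labelled library, with a log2 ratio of -0.25 (-0.28 to -0.23). Outside acinar-rich spots it was 227.4 CPM against 183.1 CPM, with a log2 ratio of 0.31 (0.29 to 0.34). Fcer1g, the signaling chain, stood at 311.2 CPM (308.3 to 314.1) against 307.7 (305.1 to 310.3), with a log2 ratio of 0.02 (-0.0021 to 0.03), and at 472.5 CPM against 313.9 CPM outside acinar-rich spots, with a log2 ratio of 0.59 (0.57 to 0.61). Among all genes tested the 5 ratios lay between the 63.7th and the 85.7th percentile with all spots, and between the 73.3rd and the 89.0th outside acinar-rich spots. In bulk sums of this kind, fewer cells of a type and less RNA per cell cannot be told apart.

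Within acinar-rich spots all 5 genes were lower in the KPC-shZEB1-labelled library. Fcgr2b was at 36.4 CPM there against 163.1 CPM in the KPC-shV-labelled library, where its level was close to the 183.1 CPM of the remaining spots. Fcgr3 was at 40.9 CPM against 112.3 CPM, and Fcer1g at 59.2 CPM against 145.8 CPM. Fcgr1 was at 11.8 CPM against 35.0 CPM and Fcgr4 at 11.03 CPM against 18.3 CPM. Acinar-rich spots had a median of 66642.5 UMIs in the KPC-shZEB1-labelled library and 24430 in the KPC-shV-labelled library, but the order was the same at equal depth. With spots thinned to 5000 UMIs, Fcgr2b was seen in 18.0% and 54.7% of them, Fcgr3 in 17.5% and 46.2%, Fcer1g in 20.7% and 60.7%, Fcgr1 in 6.63% and 22.2% and Fcgr4 in 5.44% and 8.55%. The intervals of Fcgr4 overlap, at 3.93% to 7.30% and 5.30% to 12.9%. Thinning does not equalize the part of the UMIs that came from acinar genes. That part was larger in the acinar-rich spots labelled KPC-shZEB1, which leaves a smaller share of their UMIs for all other genes. The differences above were not corrected for it, and the acinar-rich spots of the libraries may also hold unlike tissue.

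**Figure D1:**
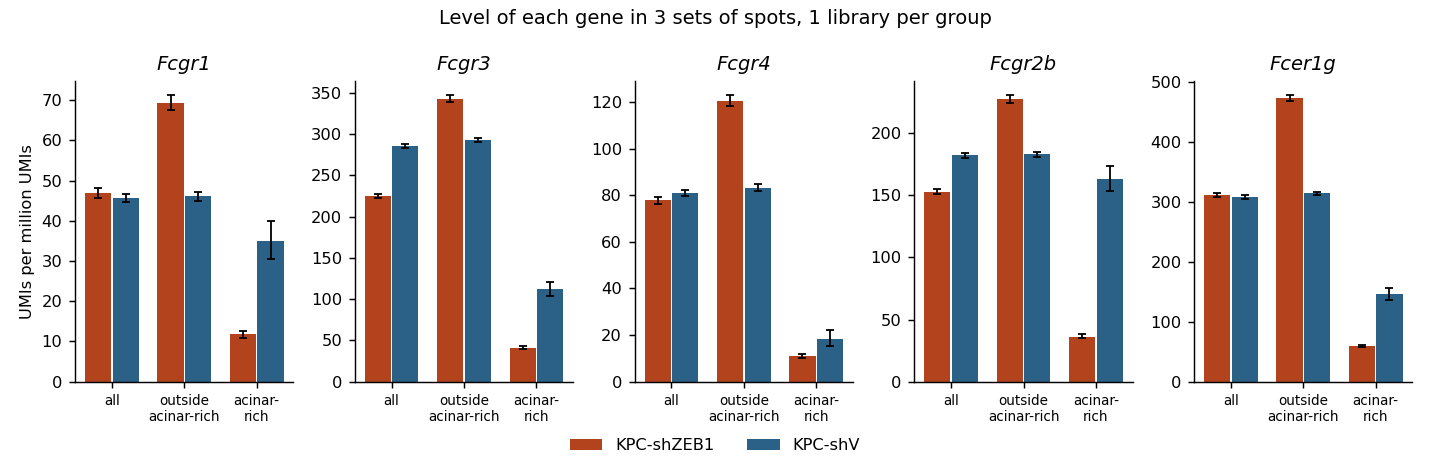
Level of each Fc gamma receptor gene and of Fcer1g in CPM, over all spots, outside acinar-rich spots and in acinar-rich spots, for the KPC-shZEB1-labelled library (red) and the KPC-shV-labelled library (blue). Bars are the summed level and whiskers the exact 95% Poisson interval for counting error. Outside acinar-rich spots all 5 red bars are the higher ones, and in acinar-rich spots all 5 are the lower ones.

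Per spot the genes were unevenly spread. Outside acinar-rich spots the median level of Fcgr1 was 52.9 CPM in the KPC-shZEB1-labelled library and 22.5 CPM in the KPC-shV-labelled library, with highest spots of 695.1 and 1147 CPM. The median of Fcgr2b was 163.5 and 123.0 CPM, and its highest spots reached 1629 and 4068 CPM. No spots were filtered, and the smallest of each library held 826 and 110 UMIs, so a few UMIs in a shallow spot can give a high CPM. The most UMIs of Fcgr2b in a spot were similar, at 106 and 100, and of Fcgr1 27 in both libraries. After each spot was thinned to 5000 UMIs, Fcgr1 was seen in 27.9% of the spots labelled KPC-shZEB1 (25.6% to 30.3%) and in 22.1% of those labelled KPC-shV (20.7% to 23.6%) outside acinar-rich spots. Fcer1g was seen in 81.9% (79.8% to 83.8%) and 70.0% (68.4% to 71.6%), and Fcgr3 in 73.3% (70.9% to 75.5%) and 69.4% (67.8% to 71.0%). Fcgr4 was seen in 41.9% (39.4% to 44.5%) and 30.7% (29.1% to 32.4%), and Fcgr2b in 55.7% (53.1% to 58.2%) and 50.7% (49.0% to 52.5%). Without thinning the shares were higher, for Fcgr1 86.9% and 64.5%. Thinning left out 4 spots of the former library and 185 of the latter, which had fewer UMIs. All 5 shares were higher in the KPC-shZEB1-labelled library at this depth, and the intervals of Fcgr3 overlap at their ends, although not in another random thinning. At 2000 UMIs Fcgr2b was level, at 32.1% and 32.0%. Over all spots, thinned to 5000 UMIs, the order of most genes turned, with Fcgr3 at 54.3% and 67.8%, Fcgr2b at 42.9% and 51.0%, Fcer1g at 61.1% and 69.3%, Fcgr1 at 20.7% and 22.1% and Fcgr4 at 29.5% and 29.2%.

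Counted against the macrophage genes over all spots, Fcgr1 and Fcer1g were nearly level between the libraries, while Fcgr3 and Fcgr2b were lower in the KPC-shZEB1-labelled library by about as much as on the CPM scale. The macrophage list holds 10 genes, among them Adgre1, Csf1r, Cd68 and the complement genes C1qa, C1qb and C1qc, and none of the 5 genes studied. For each 1000 UMIs of this list there were 26.3 UMIs of Fcgr1 in both libraries. Fcer1g had 174.7 UMIs in the KPC-shZEB1-labelled library and 177.2 in the KPC-shV-labelled library, a log2 ratio of -0.02, and Fcgr4 had 43.6 and 46.6, a log2 ratio of -0.09. Fcgr3 had 126.4 and 164.7, a log2 ratio of -0.38, and Fcgr2b had 85.8 and 105.0, a log2 ratio of -0.29. The summed level of the macrophage list was 1782 and 1736 CPM with all spots and 2669 and 1747 CPM outside acinar-rich spots.

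Macrophage-rich spots held higher levels of all 5 genes than the remaining spots in both libraries. These spots were those at or over the 90th percentile of the macrophage list, at 5714 CPM, among the spots of both libraries outside acinar-rich ones, and numbered 139 labelled KPC-shZEB1 and 339 labelled KPC-shV. Fcgr2b differed most, at 690.0 CPM inside and 189.1 CPM outside in the KPC-shZEB1-labelled library, a log2 difference of 1.87 (1.82 to 1.92). In the KPC-shV-labelled library it was at 978.7 and 139.1 CPM, a log2 difference of 2.81 (2.78 to 2.85). Fcgr1 was at 189.4 and 59.5 CPM in the KPC-shZEB1-labelled library and at 229.5 and 35.97 CPM in the KPC-shV-labelled library, log2 differences of 1.67 (1.58 to 1.76) and 2.67 (2.60 to 2.75). Fcgr3, used by the study to mark granulocytes, was at 824.7 and 303.3 CPM and at 1027 and 252.0 CPM, log2 differences of 1.44 (1.40 to 1.49) and 2.03 (1.99 to 2.06). For each of the 5 genes the lower quartile of the spots inside was above the upper quartile of the spots outside, in both libraries. For Fcgr3 the lower quartile inside was 568.8 CPM against an upper quartile outside of 400.5 CPM in the KPC-shZEB1-labelled library, and 713.2 against 413.0 CPM in the KPC-shV-labelled library. For Fcgr4 the log2 differences were 1.66 and 2.11 and for Fcer1g 1.68 and 2.15. All 5 differences were larger in the KPC-shV-labelled library, where the outside spots had the lower level of each gene. That contrast between the libraries was not tested.

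In neutrophil-rich spots the genes went different ways in the KPC-shV-labelled library. The neutrophil list has 8 genes, among them S100a8, S100a9, Cxcr2 and Ly6g, and none of the 5 genes studied, and its 90th percentile was 1042 CPM. Of the spots labelled KPC-shV, 466 were neutrophil-rich (14.1%), but only 12 of those labelled KPC-shZEB1 (0.819%, 0.424% to 1.43%). In the KPC-shV-labelled library Fcgr3 was at 390.2 CPM inside and 288.0 CPM outside, a log2 difference of 0.44 (0.38 to 0.49). Fcer1g was at 354.0 and 312.0 CPM, a log2 difference of 0.18 (0.12 to 0.24). The other receptors were lower inside: Fcgr1 was at 16.5 CPM against 47.5 CPM, a log2 difference of -1.52 (-1.79 to -1.27). Fcgr4, which neutrophils are also known to carry, was at 52.5 CPM against 84.7 CPM, a log2 difference of -0.69 (-0.84 to -0.55), and Fcgr2b at 116.6 CPM against 186.2 CPM, a log2 difference of -0.68 (-0.77 to -0.58). The median spot inside held 418.7 CPM of Fcgr3 and 0 CPM of Fcgr1, and the median spot outside 238.4 and 27.5 CPM. The spots inside had a median of only 11763 UMIs, too few to catch a gene at the level of Fcgr1 in each spot. The median of 0 thus does not show that Fcgr1 was absent.

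The neutrophil-rich spots labelled KPC-shV differed from the others in depth and in macrophage genes as well. Their median was 11763 UMIs, and their macrophage list stood at 663.0 CPM, where the library had 1747 CPM outside acinar-rich spots. Except for Fcgr1, which was lower inside under every alternative run, the directions depended on the percentile or on which spots were kept. With spots under 20000 UMIs left out, the 90th percentile was taken anew among the deeper spots, and 387 spots were in the class. The log2 differences of Fcgr3 and Fcer1g were then -0.23 and -0.39. Both the depth and the limit changed there, and the part of each was not tested. With the 80th percentile as the limit the differences were -0.16 and -0.33, and with the 95th percentile they were 1.29 and 1.05. Fcgr4 and Fcgr2b turned at the 95th percentile too, to 0.23 and 0.060. With macrophage-rich spots left out of both sides Fcgr3 and Fcer1g were at 0.66 and 0.43, and Fcgr1, Fcgr4 and Fcgr2b were lower inside, at -1.20, -0.48 and -0.27. The 12 spots labelled KPC-shZEB1 had all 5 genes higher inside, with log2 differences from 1.19 for Fcgr3 (1.01 to 1.37) to 1.57 for Fcgr1 (1.19 to 1.92). Those spots were few and 4 of them were macrophage-rich too, with a macrophage list of 6305 CPM, and with spots of more than 1 class left out, 3 remained and Fcgr1 and Fcgr2b were at -1.63 and -1.02. With macrophage-rich spots left out of both sides, 8 of the 12 remained and all 5 genes were still higher inside, at 1.57 for Fcgr1, 0.43 for Fcgr3, 0.14 for Fcgr4, 0.47 for Fcgr2b and 0.74 for Fcer1g. With more spots in the class the differences were smaller, at 0.37 to 0.51 for the 57 spots over the 80th percentile and at 0.50 to 0.63 for the 147 spots over a 90th percentile taken within the library.

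Plasma cell-rich spots had higher levels of all 5 genes in both libraries. The list was Jchain, Mzb1, Tnfrsf17 and Derl3, with a limit of 76.5 CPM, which 299 spots labelled KPC-shZEB1 (20.4%) and 179 labelled KPC-shV (5.41%) reached. These spots had medians of 41879 and 22182 UMIs, so a few UMIs of the list could place a spot in this class. Inside the class the list stood at 1139 CPM in the KPC-shZEB1-labelled library and at 249.0 CPM in the KPC-shV-labelled library. Fcgr1 was at 145.9 CPM inside and 56.1 CPM outside in the KPC-shZEB1-labelled library and at 150.9 and 42.6 CPM in the KPC-shV-labelled library, log2 differences of 1.38 (1.30 to 1.46) and 1.82 (1.72 to 1.93). Fcgr2b followed with 444.9 and 189.2 CPM and with 573.7 and 170.1 CPM, log2 differences of 1.23 (1.19 to 1.28) and 1.75 (1.70 to 1.81). Fcgr3 had the smallest differences, 0.68 (0.64 to 0.72) and 1.14 (1.09 to 1.19), and those of Fcgr4 were 0.94 and 1.18 and of Fcer1g 1.01 and 1.28. Plasma cells themselves are known for Fcgr2b among these genes. Of the plasma cell-rich spots, 91 of 299 and 62 of 179 were macrophage-rich as well, and the macrophage list stood at 4882 and 4455 CPM in them. With macrophage-rich spots left out of both sides the differences shrank to between 0.41 and 1.22 in the KPC-shZEB1-labelled library and between 0.84 and 1.66 in the KPC-shV-labelled library, with all 5 genes still higher inside.

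**Figure D2:**
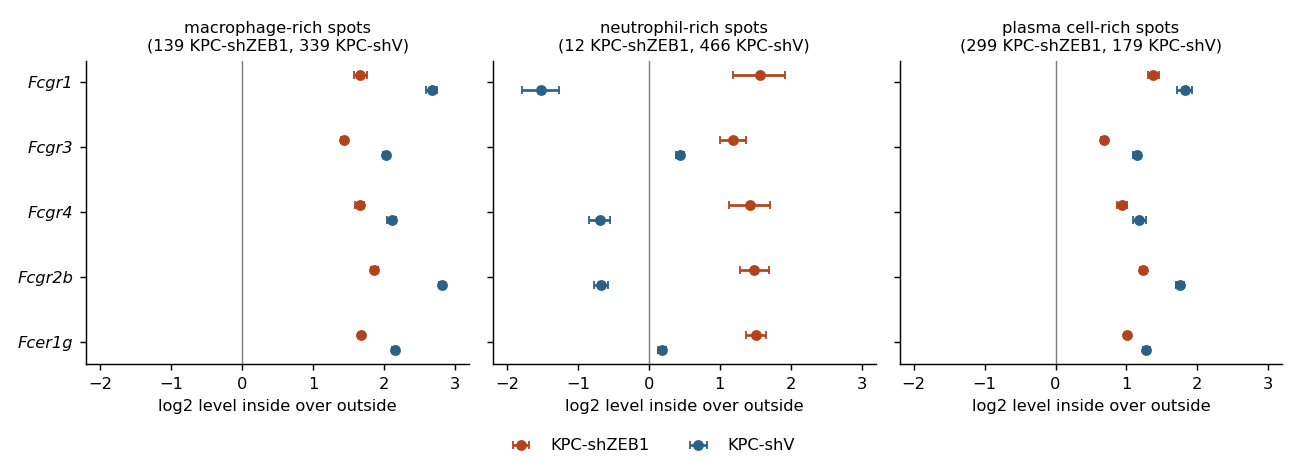
Log2 of the level inside macrophage-rich, neutrophil-rich and plasma cell-rich spots over the level outside them, for each gene in the KPC-shZEB1-labelled library (red) and the KPC-shV-labelled library (blue). Points are the summed levels, whiskers exact 95% intervals for counting error, and the line at 0 is an equal level inside and outside. The genes part at the neutrophil-rich spots labelled KPC-shV, where Fcgr1, Fcgr4 and Fcgr2b lie left of the line and Fcgr3 and Fcer1g right of it.

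Among spots rich in the genes of other cell types, those of dendritic cell, B cell, fibroblast and endothelial lists also held higher levels of the 5 genes. The log2 differences were 0.99 to 1.45 in the KPC-shZEB1-labelled library and 1.62 to 2.32 in the KPC-shV-labelled library for the dendritic cell list, and 0.79 to 1.53 and 0.91 to 2.10 for the B cell list. For the fibroblast list they were 0.63 to 1.09 and 1.57 to 2.52, and for the endothelial list 0.45 to 1.06 and 1.11 to 1.62. The macrophage list stood at 4131 to 6702 CPM in these 4 classes. The limits of the dendritic cell and B cell lists were low, at 97.3 and 67.1 CPM. Those of the NK cell and mast cell lists were 46.4 and 66.5 CPM. Spots labelled KPC-shV had medians of 18317.5 UMIs in the dendritic cell class and 14018 UMIs in the B cell class. A few UMIs of the list could thus place a spot in these classes. Spots rich in the NK cell list had differences of 0.43 to 0.69 and 0.74 to 1.26, with Fcgr4 and not Fcgr3 at the upper end in both libraries. Mast cells use the chain of Fcer1g for their IgE receptor. For the mast cell list the differences were -0.11 to 0.03 in the KPC-shZEB1-labelled library and 0.51 to 1.01 in the KPC-shV-labelled library, and Fcer1g itself stood at 472.5 CPM both inside and outside in the former and had a log2 difference of 0.71 in the latter. In spots rich in tumor epithelium genes all 5 genes were lower, by log2 differences of -1.55 to -0.82 and -2.09 to -0.69, and the same held for the monocyte list, at -1.27 to -0.60 and -1.30 to -0.93. Of the summed monocyte list of 1551 and 1934 CPM, Plac8 alone made up 1441 and 1823 CPM, and the level of Plac8 in single cell types was not tested.

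When macrophage and neutrophil genes were taken apart, the 5 genes went more with the macrophage list than with the neutrophil list. Spots outside acinar-rich ones were sorted into 9 groups by tertiles of each list. The limits were 986.4 and 2473 CPM for the macrophage list and 103.8 and 261.4 CPM for the neutrophil list. The neutrophil tertiles thus rest on fewer UMIs, and the high one starts far below the 1042 CPM of neutrophil-rich spots. The sizes of the differences along the lists are therefore not on an equal footing. Fcgr3 in spots low in neutrophil genes was at 125.8 CPM in the low macrophage tertile, 226.3 CPM in the middle and 472.3 CPM in the high one in the KPC-shZEB1-labelled library, and at 101.8, 247.4 and 602.2 CPM in the KPC-shV-labelled library. Along the neutrophil list, in spots low in macrophage genes, it was at 125.8, 128.4 and 148.3 CPM and at 101.8, 113.7 and 176.8 CPM. The mean log2 difference between the high and the low macrophage tertile was 2.02 and 2.40 for Fcgr3, and between the high and the low neutrophil tertile 0.29 and 0.43. Over the 5 genes the former ran from 2.02 to 2.66 and from 2.40 to 3.63, and the latter from 0.18 to 0.32 and from -0.04 to 0.43. Fcgr3 had the largest neutrophil value in the KPC-shV-labelled library, and at the low macrophage tertile it was 0.80, with 0.57 for Fcer1g, 0.48 for Fcgr2b, 0.08 for Fcgr4 and -0.38 for Fcgr1. In the KPC-shZEB1-labelled library the corresponding value of Fcgr3 was 0.24, but only 10 spots were low in macrophage and high in neutrophil genes there, against 871 spots labelled KPC-shV. Without spots under 20000 UMIs the neutrophil values of Fcgr3 were 0.29 and 0.37.

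**Figure D3:**
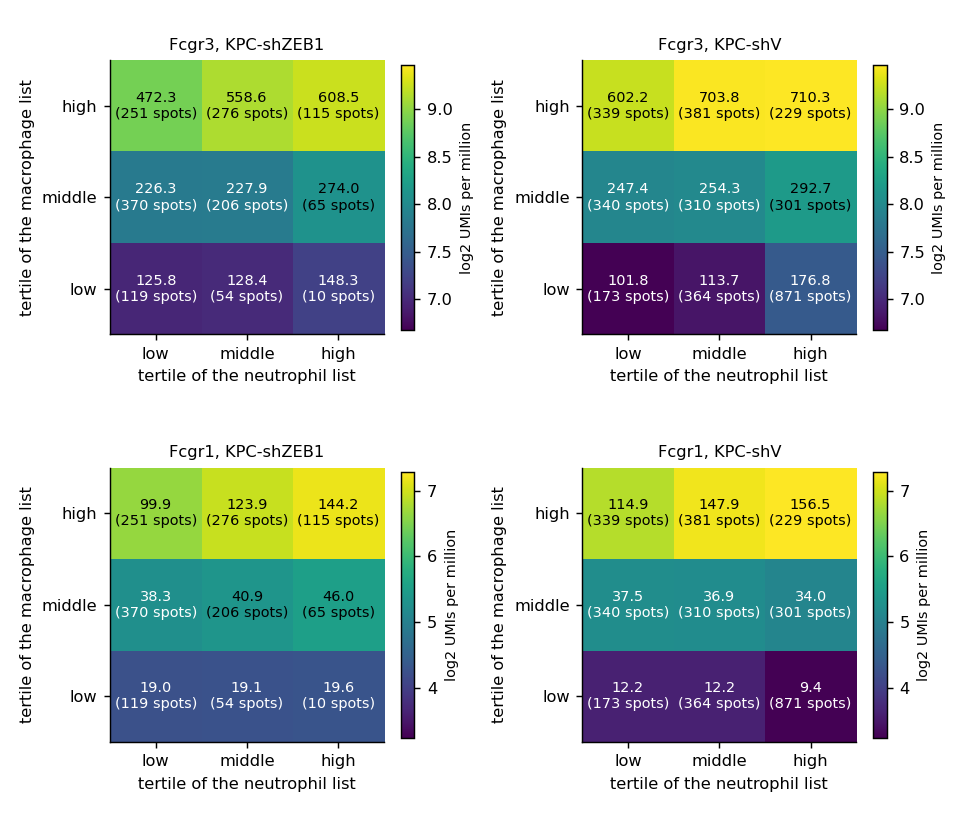
Levels of Fcgr3 (upper row) and Fcgr1 (lower row) in 9 groups of spots, by tertiles of the neutrophil list (horizontal) and of the macrophage list (vertical), for each library. Colors are log2 CPM on a scale that both libraries share for a gene, and each cell prints the level and the number of spots. Levels climb from bottom to top in every column, and in the bottom row only Fcgr3 in the KPC-shV-labelled library climbs clearly from left to right, from 101.8 to 176.8.

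Among the study's 5 granulocyte markers, Fcgr3 together with Csf3r, G0s2, S100a8 and S100a9, Fcgr3 itself made up most of the UMIs in the KPC-shZEB1-labelled library. Its share of their summed UMIs was 73.7% (73.3% to 74.1%) there and 49.0% (48.7% to 49.3%) in the KPC-shV-labelled library. In macrophage-rich spots the share was 78.9% and 86.1%, in neutrophil-rich spots 24.98% and 13.5%, and in spots that were neither 72.6% and 54.4%. Csf3r, G0s2, S100a8 and S100a9 belong to the neutrophil list that set the neutrophil-rich spots. The low share of Fcgr3 in those spots was thus favored by their choice, and no conclusion is drawn from it. The sum of the 5 genes was at 305.6 CPM against 583.4 CPM, with a log2 ratio of -0.93 (-0.95 to -0.92), and without Fcgr3 it was at 80.4 CPM against 297.5 CPM, with a log2 ratio of -1.89 (-1.92 to -1.86). Outside acinar-rich spots these log2 ratios were -0.35 and -1.28. A sum of UMIs weighs each gene by the yield of its probes, and shares would differ with scaled values for each gene. The study used a module score of normalized values instead, so the share is not the weight of Fcgr3 in its score. It also followed neutrophils by single-cell RNA sequencing, tissue staining and flow cytometry.

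**Figure D4:**
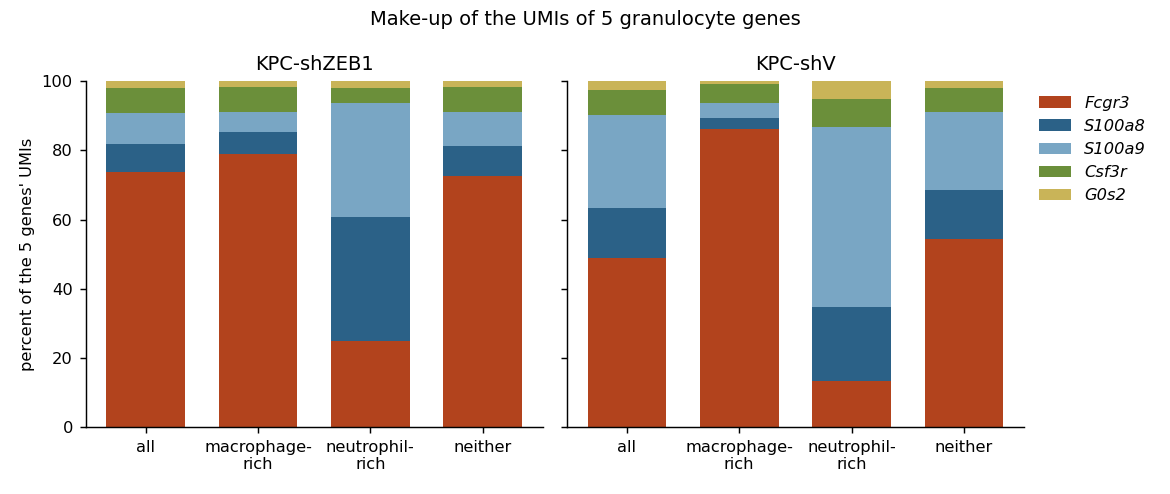
Percent of the summed UMIs of Fcgr3, S100a8, S100a9, Csf3r and G0s2 that each gene held in all spots, macrophage-rich spots, neutrophil-rich spots and spots outside acinar-rich ones that were neither, for each library. Fcgr3 holds the largest part of each bar except those of neutrophil-rich spots, where it is at 24.98% in the KPC-shZEB1-labelled library and 13.5% in the KPC-shV-labelled library. The other genes of the bars belong to the list that set the neutrophil-rich spots, which favors a low share of Fcgr3 there.

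The balance of activating and inhibitory receptors was close in both libraries when all UMIs were summed, with counting intervals that overlap. It was less close when each spot was given the same weight. For each UMI of Fcgr2b there were 2.29 UMIs of Fcgr1, Fcgr3 and Fcgr4 together (2.25 to 2.33) in the KPC-shZEB1-labelled library and 2.26 (2.23 to 2.29) in the KPC-shV-labelled library. Outside acinar-rich spots the ratio was 2.34 and 2.31. With each spot thinned to 5000 UMIs, which weighs deep and shallow spots alike and leaves out those with fewer, it was 2.25 in the KPC-shZEB1-labelled library. In the KPC-shV-labelled library it was then 1.97. In macrophage-rich spots it was lower, at 1.94 (1.87 to 2.01) and 1.60 (1.55 to 1.64), and in plasma cell-rich spots 1.92 (1.86 to 1.98) and 1.66 (1.59 to 1.74). B cell-rich spots, in which B cells could add Fcgr2b, had 1.90 and 1.45, although a few UMIs could place a spot in this class. Endothelial-rich spots had 1.97 and 1.86. Neutrophil-rich spots labelled KPC-shV stood out with 3.94 (3.65 to 4.25), of 3422 activating and 869 inhibitory UMIs. Of those 3422 UMIs, 2908 were of Fcgr3, and Fcgr1 and Fcgr4 had only 123 and 391, fewer than Fcgr2b. The high ratio there is thus one of Fcgr3 and not of the activating receptors as a group. The 12 spots labelled KPC-shZEB1 had 2.06 (1.74 to 2.44). The ratio depends on Fcgr3, since without it the ratios of the libraries were 0.816 and 0.694, and on how the probes split Fcgr3 from Fcgr2b.

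**Figure D5:**
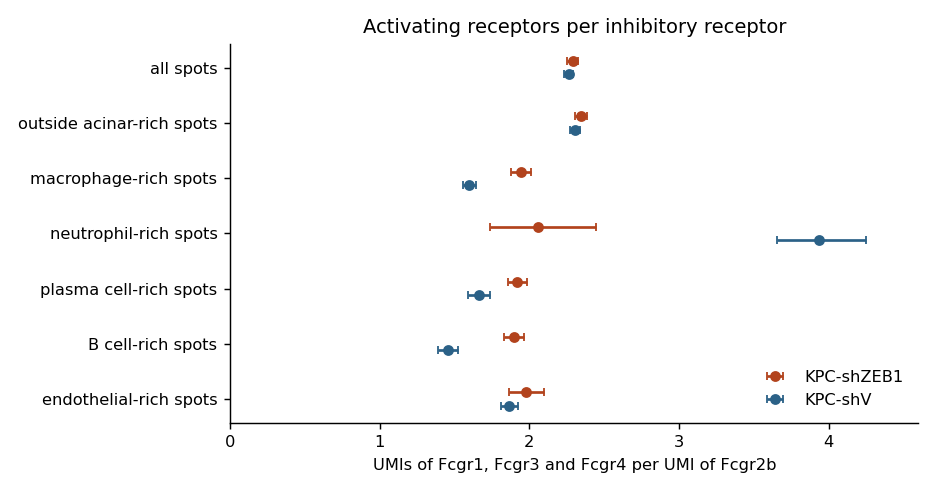
UMIs of the activating receptor genes Fcgr1, Fcgr3 and Fcgr4 for each UMI of the inhibitory receptor gene Fcgr2b, in the KPC-shZEB1-labelled library (red) and the KPC-shV-labelled library (blue), over all spots, outside acinar-rich spots and in 5 classes of spots. Whiskers are exact 95% intervals for counting error. Without thinning, the libraries lie close over all spots at 2.29 and 2.26, and neutrophil-rich spots labelled KPC-shV lie apart at 3.94. Of the 3422 activating UMIs of those spots, 2908 were of Fcgr3.

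The IgG heavy chain genes, which encode the part of the antibody that the receptors bind, had larger ratios than the receptors. Of these 4 genes, 2 were at least 2-fold higher in the KPC-shZEB1-labelled library with all spots, where 2.40% of 15358 genes were. Outside acinar-rich spots 4 were, against 4.80% of 14389 genes, although Ighg1 was low there, at 1.49 CPM against 0.622 CPM. The medians of the log2 ratios were 2.52 with all spots and 3.13 outside acinar-rich spots. Ighg2b was at 696.7 CPM against 41.3 CPM and Ighg3 at 375.7 CPM against 6.97 CPM, while Ighg2c was at 38.3 CPM against 19.7 CPM and Ighg1 at 0.996 CPM against 0.622 CPM. These genes are close paralogs too, and the split among them was not checked. The plasma cell list was at 139.9 CPM against 16.3 CPM and the B cell list at 29.9 CPM against 13.6 CPM. Of 9 other Fc receptor genes tested, 0 passed 2-fold with all spots, where 2.40% of 15358 genes were higher and 9.21% lower by that much. The median log2 ratio of the 9 was 0.26. Fcgrt, which encodes the neonatal Fc receptor, was at 88.8 CPM against 74.2 CPM and Pigr, the transporter of polymeric immunoglobulins, at 95.7 CPM against 101.7 CPM. Outside acinar-rich spots 4 of the 9 were at least 2-fold higher, against 4.80% of 14389 genes. All of these were at low levels: Fcer1a was at 4.06 CPM against 1.44 CPM, Fcrla at 3.79 against 1.35, Fcrl1 at 2.85 against 1.15 and Fcmr at 2.19 against 1.03.

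Of the signaling genes downstream of the receptors, those of the activating pathway had a median ratio close to that of the receptors. The median of the inhibitory pathway was lower, but its genes differed among themselves. Of 15 genes of the activating pathway, 13 were above the median of all genes, with a median log2 ratio of -0.04 with all spots and 0.54 outside acinar-rich spots, against -0.48 and -0.02 for all genes. Syk, the kinase that binds the phosphorylated chain, was at 28.3 CPM against 30.3 CPM, and Tyrobp, a related signaling chain, at 138.7 CPM against 142.8 CPM. With all spots 1 of the 15 was at least 2-fold lower, against 9.21% of 15358 genes: Plcg2, a phospholipase, at 37.6 CPM against 85.7 CPM. Another 1 was at least 2-fold higher, against 2.40% of those genes: Cd247, a chain of the T cell receptor complex, at 2.69 CPM against 0.70 CPM. The 9 genes of the inhibitory pathway had a median log2 ratio of -0.62 and -0.08, with 2 above the median of all genes over all spots and 3 outside acinar-rich spots. With all spots 2 of the 9 were at least 2-fold lower, where 9.21% of 15358 genes were. Outside acinar-rich spots 0 were, against 2.02% of 14389 genes. The 2 were the adaptors Dok1, at 71.3 CPM against 154.8 CPM, and Dok2, at 45.3 CPM against 108.1 CPM. Inpp5d, which encodes SHIP1, was at 37.3 CPM against 39.0 CPM with all spots and at 57.0 CPM against 39.8 CPM outside acinar-rich spots. Ptpn6, also of the inhibitory list, had log2 ratios of 0.16 and 0.74 in these sets of spots. Of 8 oxidase and uptake genes the median was -0.23 and 0.36. With all spots only Cybb, a subunit of the phagocyte oxidase, was higher in the KPC-shZEB1-labelled library, at 129.0 CPM against 95.5 CPM, and the others were lower. Axl was the lowest of them, with a log2 ratio of -0.76. Outside acinar-rich spots only Axl was lower, at -0.16. Complement receptors had a median of -0.31 and 0.24 over 5 genes, and other receptors that pair with the chain of Fcer1g, such as Clec4e and Clec4n, -0.22 and 0.40 over 4 genes.

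Across spots the 5 genes were most like macrophage genes. Pearson's r was taken in 1412 spots labelled KPC-shZEB1 and 2673 labelled KPC-shV, all thinned to 20000 UMIs, for 9408 genes, and describes spots that share a section and a library. The genes most like Fcgr3, by the lower r of the libraries, were Ctss (0.68 and 0.70), C1qa (0.68 and 0.67), Fcer1g (0.67 and 0.71), C1qb (0.66 and 0.68) and Psap (0.66 and 0.72). Ctss encodes a lysosomal protease of antigen-presenting cells, C1qa and C1qb encode chains of complement C1q, and Psap encodes a lysosomal protein. Those most like Fcgr2b were C1qa (0.67 and 0.72), Apoe, Fcer1g, Ctss and C1qb, and those most like Fcer1g were C1qb (0.73 and 0.72), Ctss, C1qa, Cd52 and Psap. Fcgr4 was most like Cd74 (0.60 and 0.66), the invariant chain of MHC class II, followed by Ctss, C1qa, Fcer1g and Psap. Fcgr1 was most like C1qa (0.52 and 0.64), followed by Ccl8, Unc93b1, Mrc1 and C1qb. No gene of the neutrophil list was among those named. Most neutrophil-rich spots labelled KPC-shV, with their median of 11763 UMIs, were too shallow to enter, so the absence holds for the deeper spots. Genes below a mean of 0.2 UMIs per thinned spot in either library could not be named. In the KPC-shZEB1-labelled library outside acinar-rich spots Ly6g, Mmp8 and Retnlg were low, at 2.79, 4.24 and 1.45 CPM, while S100a8 and S100a9 were at 40.5 and 44.0 CPM. Which genes of the list passed that minimum is not given here, so no conclusion is drawn from their absence. With the summed macrophage list the r of the 5 genes ran from 0.57 to 0.80 and from 0.66 to 0.77, and with the neutrophil list from 0.19 to 0.29 in the KPC-shZEB1-labelled library and from -0.19 to -0.05 in the KPC-shV-labelled library. With the fibroblast list it ran from 0.26 to 0.54 and from 0.54 to 0.70, the latter close to the macrophage values of that library. With the endothelial list it ran from 0.26 to 0.39 and from 0.39 to 0.48, and with the dendritic cell list from 0.32 to 0.47 and from 0.28 to 0.37. With the plasma cell list it ran from 0.27 to 0.39 and from 0.17 to 0.29, and with tumor epithelium genes from -0.55 to -0.37 and from -0.58 to -0.39.

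The bases before the start sites of the 5 genes were read as well. The letters GAGGAA hold GGAA, the core of the sites of ETS factors, to which the macrophage factor PU.1 belongs. GAGGAA was searched on both strands of the 150 bases upstream of the start sites in the RefSeq promoter table on GRCm38. All 5 genes were found in that table. GAGGAA occurred, as TTCCTC on the strand of the gene, before Fcgr1, Fcgr3 and Fcgr4 and not before Fcgr2b or Fcer1g. Of 27025 genes, 14.4% held it. The shorter GGAA was not counted, but it occurs before Fcgr2b and Fcer1g too. The 3 promoters with GAGGAA are printed with those 6 letters in capitals. That of Fcgr3 lies within the span of the gene in GENCODE M21, in which a longer transcript starts farther upstream, and that of Fcgr4 ends within the first bases of the gene.
Fcgr1, chr3:96293970-96294119, minus strand: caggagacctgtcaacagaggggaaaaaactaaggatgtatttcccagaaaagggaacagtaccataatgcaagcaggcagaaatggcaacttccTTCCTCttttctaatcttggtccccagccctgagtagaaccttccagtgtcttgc
Fcgr3, chr1:171059404-171059553, minus strand: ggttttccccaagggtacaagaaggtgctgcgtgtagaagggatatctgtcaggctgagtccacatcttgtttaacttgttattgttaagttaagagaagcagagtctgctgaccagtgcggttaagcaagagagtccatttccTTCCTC
Fcgr4, chr1:171018776-171018925, plus strand: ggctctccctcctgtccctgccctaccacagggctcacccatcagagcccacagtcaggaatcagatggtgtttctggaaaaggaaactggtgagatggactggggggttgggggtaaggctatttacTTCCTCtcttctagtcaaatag
The match is a description of letters, and no binding was measured here.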

How the data were processed

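Levels of RNA were measured by Visium CytAssist spatial transcriptomics in 1 section library for each group, grouped by the labels. The authors deposited raw UMI counts per spot and gene, made per the labels with Space Ranger 2.0.1 on mm10 from fresh-frozen, methanol-fixed tissue by probe hybridization. Probes differ in yield, so the share of Fcgr3 among the granulocyte markers and the UMIs per Fcgr2b UMI, which set genes against each other, describe captured UMIs and not molecules of RNA. Counts were summed over spots and divided by summed UMIs (CPM), without further filters on spots, using Python 3.11.15, numpy 2.4.6, scipy 1.17.1 and pandas 2.3.3. Intervals are exact at 95% (Poisson for levels, conditional binomial for ratios, Clopper-Pearson for shares) and cover counting error only. With 1 library per group no test was possible, and spots are regions, neither cells nor replicates. No doublet caller was run. Folds across genes used those with at least 100 UMIs in both libraries. The summing and calling steps were checked on simulated data.

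Marker-rich spots were those at or over the 90th percentile of a list's summed CPM over both libraries outside acinar-rich spots. No list held any of the 5 genes, but 4 of the study's granulocyte markers are in the neutrophil list. List genes not analysed here were 5 of 24 acinar genes, 1 of 6 monocyte genes, 1 of 6 tumor epithelium genes, 2 of 10 oxidase and uptake genes and 1 of 7 receptors paired with the chain of Fcer1g. Named genes were the 5 genes, the genes of the lists, and for each of the 5 the 5 genes with the highest lower r, at 0.3 or more, among genes with a mean of at least 0.2 UMIs per thinned spot. The members and lists were chosen with earlier results of these data known. The libraries share 1718 barcodes, which mark slide positions. Of the symbols, 11 were repeated. Sequences came from GENCODE M21 and RefSeq, both on GRCm38. Alternatives changed the spots used, the library total, the scaling, the percentile, the depth and the thinning. Ratios per macrophage UMI, plasma cell lists without Derl3, and classes without B cell-rich or macrophage-rich spots were added after seeing the data.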

Additional observations from a re-analysis of the deposited data

Results flagged for a closer look

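In neutrophil-rich spots 3 genes lay on opposite sides of the remaining spots in the libraries. The log2 difference of Fcgr1 was 1.57 in the KPC-shZEB1-labelled library and -1.52 in the KPC-shV-labelled library. For Fcgr4 the values were 1.43 and -0.69, and for Fcgr2b 1.49 and -0.68. The difference between the libraries was not tested. The spots numbered 12 in the KPC-shZEB1-labelled library and 466 in the KPC-shV-labelled library, with macrophage lists of 6305 and 663.0 CPM and median UMIs of 24263 and 11763. With macrophage-rich spots left out the values were 1.57 and -1.20 for Fcgr1, 0.14 and -0.48 for Fcgr4 and 0.47 and -0.27 for Fcgr2b. With spots under 20000 UMIs left out, the limit was taken anew, and 22 and 387 spots were in the class. The values were then 0.64 and -1.34 for Fcgr1, 0.68 and -1.12 for Fcgr4 and 0.62 and -0.83 for Fcgr2b. The opposite sides thus remained under both, although the latter rests on partly other spots. With spots of several classes left out, 3 spots labelled KPC-shZEB1 remained, and Fcgr1 and Fcgr2b were lower inside in both libraries, at -1.63 and -1.27 and at -1.02 and -0.23. At the 95th percentile Fcgr4 and Fcgr2b were higher inside in both.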

How the results depend on the processing

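The log2 ratios between the libraries depended on how acinar-rich spots entered. In the order Fcgr1, Fcgr3, Fcgr4, Fcgr2b and Fcer1g, they were 0.59, 0.23, 0.53, 0.31 and 0.59 outside acinar-rich spots, 0.56, 0.21, 0.51, 0.30 and 0.57 with spots over 5% acinar UMIs left out, and 0.58, 0.22, 0.52, 0.30 and 0.58 with those over 40% left out. They were 0.37, -0.0085, 0.28, 0.081 and 0.35 with acinar genes out of the total, 0.52, 0.14, 0.42, 0.23 and 0.50 with median-of-ratios scaling, and -0.15, -0.57, -0.15, -0.56 and -0.20 as a mean over the CPM of single spots. With spots under 20000 UMIs left out, Fcgr1, Fcgr3, Fcgr2b and Fcer1g were at 0.12, -0.29, -0.16 and 0.081. With the 5% of spots highest in the gene left out, Fcgr3, Fcgr4, Fcgr2b and Fcer1g were at -0.45, -0.095, -0.30 and -0.087, and per macrophage UMI at -0.38, -0.094, -0.29 and -0.021. The activating UMIs per Fcgr2b UMI in the libraries labelled KPC-shZEB1 and KPC-shV were 2.34 and 2.31 outside acinar-rich spots, 2.41 and 2.35 without B cell-rich spots, 0.816 and 0.694 without Fcgr3, and 2.25 and 1.97 with spots thinned to 5000 UMIs. In neutrophil-rich spots labelled KPC-shZEB1, 2 of 5 genes were higher inside with spots of several classes left out (3 spots), with Fcgr1 at -1.63, Fcgr2b at -1.02 and Fcer1g at -0.092. In those labelled KPC-shV, 4 were higher at the 95th percentile (Fcgr4 0.23, Fcgr2b 0.060) and 0 at the 80th (Fcgr3 -0.16, Fcer1g -0.33). With the limit taken anew, 1 was higher with acinar-rich spots kept (Fcer1g -0.051) and 0 with spots under 20000 UMIs left out (Fcgr3 -0.23, Fcer1g -0.39). The median of other Fc receptors was -0.054 at a minimum of 500 UMIs. The causes were not tested. The most alike genes shared 2 to 5 of 5 with Spearman's rho and 2 to 4 without thinning. Among the main results, 61 values under alternatives were counted as the same, 41 as moved and 14 as turned. Many of these are counts of genes higher inside a class, which stay the same even where the differences of single genes move. A ratio whose counting interval holds 0 was never counted as turned. Among the remaining values, such as those of single genes in marker-rich spots, 136 stayed within counting error, 230 moved and 11 turned. No paired analysis was possible because each group has 1 library.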
